A study of Mus musculus with 17 samples.

Results

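Fmn1, Limch1, Capn6, Etl4, Chodl and Hmcn1 encode proteins that shape or anchor cells, and all had lower RNA levels in Dlx1/2 mutant than in wild-type enteric neural crest-derived cells of E14.5 mouse embryos. The 6 genes were chosen by their counts at E14.5, as genes that were lower in mutants, so their E14.5 values are given as a description with no test, and the libraries taken at birth (P0) are the only ones that did not enter the choice. They are 6 of 22786 genes in the E14.5 count table and of 25568 in the P0 table. All 6 passed the filter on low counts at both ages.

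The study sorted cells of the small intestine from mutant mice (Dlx1/2-/-), which lack a pair of neighbouring homeobox genes, and from wild-type mice (Dlx1/2+/+). The E14.5 libraries, 4 of each genotype, came from cells sorted for EDNRB-L10A-EGFP in mice from a cross of CF1 and C57BL/6J. The P0 libraries, 4 wild-type and 5 mutant, came from cells sorted for Wnt1-Cre and R26R-TdTomato in mice from a cross of CF1, C57BL/6J and CBA/J. Wild-type and mutant mice of an age carried the same reporter. Wnt1-Cre marks cells of neural crest descent, and a reporter named for the endothelin receptor gene Ednrb marks cells that express that gene. Age, reporter, strain and count table all change together, so the 2 ages are set side by side and not tested against each other. Each group held libraries with and without Y-linked transcripts, so its libraries did not all stem from the same animal. Whether each library stems from a different animal is not said in the labels. The p-values below therefore reflect library-to-library spread that may be partly technical.

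Enteric neural crest-derived cells colonise the bowel by migrating through its mesenchyme, and then become neurons and glia that send out long processes. Migration and process growth need actin filaments, the myosin that pulls on them, microtubules, and contacts with the surface of other cells and with the matrix. Fmn1 (formin 1) builds unbranched actin filaments. Limch1 has LIM and calponin homology domains and activates non-muscle myosin II. Capn6 (calpain 6) is a calpain that lacks the catalytic cysteine of its family and is known to stabilise microtubules. Etl4 (enhancer trap locus 4, also called sickle tail) is known for its part in the notochord and the intervertebral discs. Chodl (chondrolectin) is a membrane protein with a C-type lectin domain and is known as a marker of motor neurons. Hmcn1 (hemicentin 1) is a very large matrix protein of the fibulin family.

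The 6 genes lie on 5 chromosomes, in the GENCODE M21 annotation of GRCm38. Fmn1 (ENSMUSG00000044042) spans chr2:113327736-113716767 on the plus strand, and Etl4 (ENSMUSG00000036617) spans chr2:19909780-20810713 on the same strand. Dlx1 and Dlx2 are on chromosome 2 too, 41.8 Mb from Fmn1 and 50.7 Mb from Etl4. Limch1 (ENSMUSG00000037736) spans chr5:66745827-67057158 on the plus strand. Capn6 (ENSMUSG00000067276) is X-linked, at chrX:143802231-143827414 on the minus strand. Chodl (ENSMUSG00000022860) spans chr16:78930948-78951733 on the plus strand, and Hmcn1 (ENSMUSG00000066842) spans chr1:150562524-150993435 on the minus strand. The union of their annotated exons runs from 5.49 kb in Chodl to 21.2 kb in Hmcn1, and the gene body from 20.8 kb in Chodl to 901 kb in Etl4. Predicted genes on the same strand overlap Fmn1 (2), Limch1 (3), Capn6 (1) and Etl4 (4), and reads in those overlaps may be shared. None overlap Chodl or Hmcn1 on their strand.

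RefSeq promoter windows on GRCm38.p6 were found for all 6 genes, 11 in all because some genes have several start sites. Below are the 250 bases before a start site for Capn6, which had the lowest E14.5 fold of the 6, for Chodl, whose levels did not overlap between genotypes at either age, and for the only Etl4 window with a homeodomain core. The search covered both strands for TAATTA and TAATTG, the cores that homeodomain factors such as the DLX proteins are known to bind, and capitals mark a match. The Capn6 window is chrX:143827413-143827662 on the minus strand, the Chodl window chr16:78930698-78930947 on the plus strand and the Etl4 window chr2:20289663-20289912 on the plus strand, the first of 3 for that gene.
Capn6: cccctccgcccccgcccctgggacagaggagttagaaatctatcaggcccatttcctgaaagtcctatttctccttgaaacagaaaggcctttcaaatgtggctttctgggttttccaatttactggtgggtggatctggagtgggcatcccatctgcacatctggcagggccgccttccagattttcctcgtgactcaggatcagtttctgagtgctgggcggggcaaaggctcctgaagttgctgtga
Chodl: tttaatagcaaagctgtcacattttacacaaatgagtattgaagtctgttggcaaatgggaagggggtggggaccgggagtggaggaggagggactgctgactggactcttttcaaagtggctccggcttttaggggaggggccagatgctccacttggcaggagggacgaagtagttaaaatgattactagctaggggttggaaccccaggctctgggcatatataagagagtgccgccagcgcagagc
Etl4: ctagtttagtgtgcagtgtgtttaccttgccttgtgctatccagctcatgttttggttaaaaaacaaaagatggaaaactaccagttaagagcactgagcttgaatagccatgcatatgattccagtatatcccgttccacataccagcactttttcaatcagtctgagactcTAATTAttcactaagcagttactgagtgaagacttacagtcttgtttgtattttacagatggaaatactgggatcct
Of the 11 windows of the 6 genes, 1 held either core, the Etl4 window, where TAATTA begins 77 bases before the start site. That window lies inside the Etl4 gene body, which begins at chr2:19909780, and 19 of its bases are annotated exon. Whether it acts as a promoter was not tested. Of all 32851 windows of this length, 11.3% held either core, 4.84% TAATTA and 7.17% TAATTG. The TATA box core TATAAA was in 2 of the 11 windows, another Etl4 window and a Limch1 window, and in 12.4% of all windows. A match is a description of the letters, and no match says nothing of binding elsewhere.

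Levels are given as CPM, a gene's counts scaled to a library of fixed size, with library totals adjusted by edgeR's TMM method. Library totals were 6949217 to 6956149 counts at E14.5 and 4463830 to 4469731 at P0. The deleted genes went with the labels. Dlx1 had 885 to 988 counts in wild types against 53 to 101 in mutants at E14.5, and Dlx2 had 525 to 771 against 0 to 6. The P0 counts of Dlx1 were 296 to 343 against 18 to 32, and those of Dlx2 were 212 to 379 against 0 to 1. Y-linked transcripts were present in 3 of 4 wild-type but 1 of 4 mutant libraries at E14.5, and in 2 of 4 wild-type and 3 of 5 mutant libraries at P0, so sex was uneven between the E14.5 groups. The libraries' titles carry dates, of which the genotypes shared 1 at each age.

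Among the cytoskeletal genes at E14.5, Fmn1 had 82.0, 77.1, 71.7 and 64.5 CPM in wild-type libraries 1 to 4 and 26.4, 36.3, 19.2 and 52.1 CPM in mutant libraries 1 to 4. Every mutant library was below every wild-type library, with mutant library 4 the closest. The means were 73.8 ± 7.50 and 33.5 ± 14.2 CPM (SD, n = 4 and 4), and edgeR's log2 fold of mutant over wild type was -1.14 ± 0.22 (SE). These are bulk libraries, in which fewer cells of a type that uses the gene and less RNA per cell cannot be told apart. Limch1 had 104, 107, 129 and 110.1 CPM in wild-type and 79.5, 71.1, 63.3 and 61.8 CPM in mutant libraries. Its spread was small in both genotypes, with a coefficient of variation of 10.0% in wild-type and 11.8% in mutant libraries, and the log2 fold was -0.71 ± 0.13.

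Capn6 had the lowest fold of the 6 genes and, among wild types, the widest spread, with a coefficient of variation of 54.5%. It had 73.0, 50.2, 82.7 and 166 CPM in wild-type and 17.7, 41.5, 19.1 and 29.0 CPM in mutant libraries. Wild-type library 4 stood well above the other wild-type libraries, and mutant library 2 came closest to the wild-type range without entering it. The means were 93.1 ± 50.7 and 26.8 ± 11.02 CPM (SD, n = 4 and 4), and the log2 fold of -1.79 ± 0.30 became -1.35 without wild-type library 4. Of 13521 genes tested, 20 had a lower fold. The highest Capn6 level of the mutants was in the only mutant library with Y-linked transcripts, and the lowest of the wild types in the only wild-type library without them. Within libraries with Y-linked transcripts it had 73.0 to 166 CPM in 3 wild-type libraries and 41.5 CPM in 1 mutant. Within those without, it had 50.2 CPM in 1 wild-type library and 17.7 to 29.0 CPM in 3 mutants. With the summed Y-linked level as a covariate the log2 fold was -1.29 ± 0.26.

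Etl4 had 187, 155, 161 and 178 CPM in E14.5 wild-type and 86.5, 107, 81.2 and 121 CPM in mutant libraries. The groups did not overlap, and the log2 fold was -0.79 ± 0.13. As with Fmn1, the highest mutant was library 4 and the lowest was library 3.

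Of the surface and matrix genes, Chodl had 40.0, 41.3, 45.3 and 57.7 CPM in E14.5 wild-type and 12.5, 18.6, 22.6 and 26.6 CPM in mutant libraries. It had the widest gap between the groups, 0.59 on the log2 CPM scale, and a log2 fold of -1.20 ± 0.22. Hmcn1 had 278, 279.8, 331 and 375 CPM in wild-type and 173, 198, 177 and 249.8 CPM in mutant libraries. Its gap was the narrowest, 0.16 on the same scale, and its log2 fold the closest to 0, -0.66 ± 0.13, with 451 tested genes lower still.

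At E14.5, then, 6 of the 6 genes had every mutant library below every wild-type library. Of all genes tested, 1.95% did so in that direction and 0.111% were lower with an adjusted p under 0.05 in edgeR's quasi-likelihood test (Benjamini-Hochberg over all genes), but the choice of the genes used this contrast and nothing is read from the count. Since no E14.5 groups overlap, every subset of these libraries has the same direction, and only the sizes within a subset carry information. Mutant library 4 and wild-type library 1 share a title date. Between these 2 libraries the log2 CPM difference was -1.32 for Capn6, -0.75 for Limch1, -0.65 for Fmn1, -0.63 for Etl4, -0.59 for Chodl and -0.16 for Hmcn1. The size for Hmcn1 was the smallest of the 6. A fit with the title date as a block rests on that pair for its genotype term, and gave Hmcn1 -0.16 ± 0.17, Chodl -0.59 ± 0.32 and Fmn1 -0.65 ± 0.38, against folds of -0.66, -1.20 and -1.14 without the block.

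**Figure D1:**
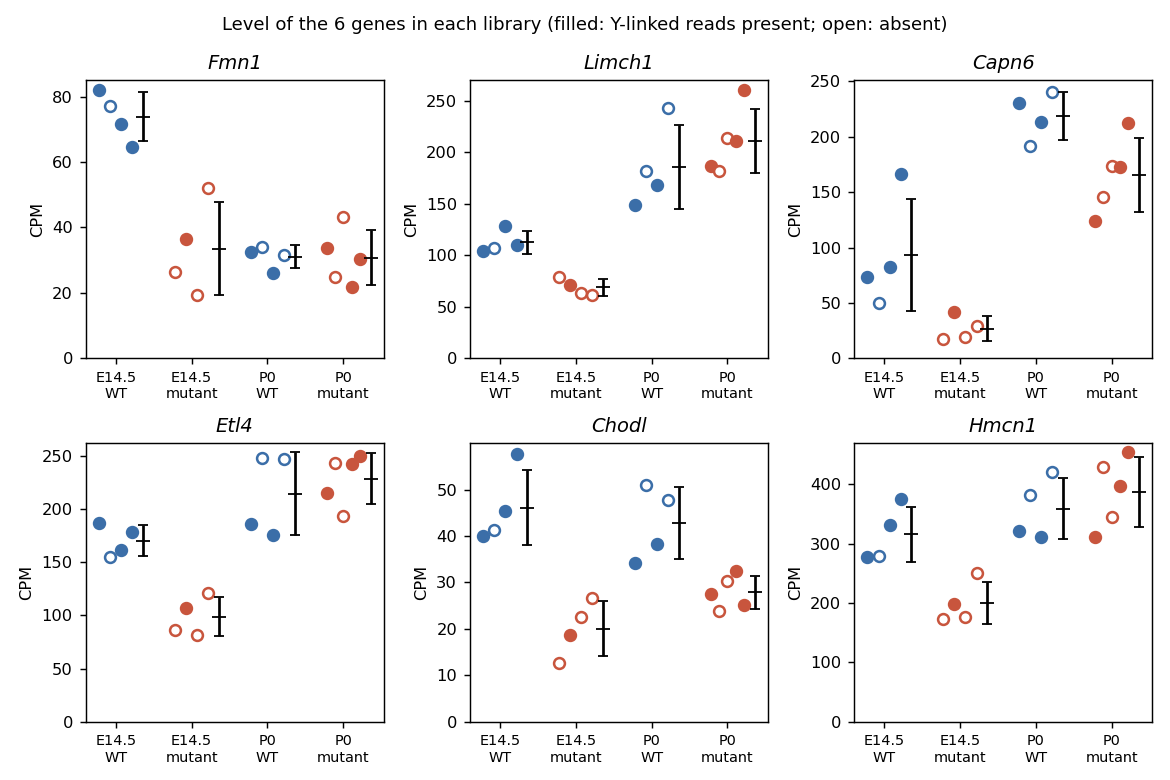
Level of each of the 6 genes in CPM (vertical axis, from 0) in every library of the 4 groups, with the mean and SD as bars. Blue is wild type and red is mutant, and open circles are libraries without Y-linked transcripts. The E14.5 groups do not overlap for any of the 6 genes, while at P0 only Chodl keeps the groups apart.

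The P0 comparison asks how the same genes stand in the newborn bowel, in libraries that had no part in choosing them. By edgeR's quasi-likelihood test 0 of 6 passed at an adjusted p under 0.05, where 0.0141% of 14140 genes tested did so, namely Dlx1 and Dlx2. DESeq2 and limma-voom also called 0 of 6. At an unadjusted p under 0.05, 2 of 6 were lower, Chodl and Capn6, where 3.88% of all genes were. With the title date as a block 1 of 6 had such a p, Chodl, and without wild-type library 4 there were 3, the third being Limch1, which was higher (0.34 ± 0.14). The other 4, Fmn1, Limch1, Etl4 and Hmcn1, had folds close to 0 or above it, so 3 of 6 were below 0, where 51.6% of all genes were.

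Chodl was the gene of the 6 whose groups did not overlap at P0, which 1.1% of all tested genes showed in that direction. It had 34.3, 50.9, 38.3 and 47.7 CPM in wild-type libraries 1 to 4 and 27.6, 23.8, 30.3, 32.4 and 25.1 CPM in mutant libraries 1 to 5. The highest mutant, library 4, lay just under the lowest wild-type, library 1. The means were 42.8 ± 7.80 and 27.8 ± 3.55 CPM (SD, n = 4 and 5), and the mutant mean was 65.0% of the wild-type mean. edgeR's quasi-likelihood test gave a log2 fold of -0.62 ± 0.17 with a 95% interval of -0.99 to -0.25, an unadjusted p of 0.00249 and an adjusted p of 0.405, so Chodl did not pass over all genes. DESeq2 gave it an adjusted p of 0.135. Between the libraries that share a P0 title date it had 47.7 CPM in 1 wild-type library and 25.1 and 32.4 CPM in 2 mutants.

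Capn6 had 230.1, 191, 213 and 240.1 CPM in P0 wild-type and 124, 146, 173, 172 and 212 CPM in P0 mutant libraries. Mutant library 5 reached into the wild-type range, and the other 4 mutants were below it. The means were 219 ± 21.4 and 165 ± 33.3 CPM (SD, n = 4 and 5). edgeR's quasi-likelihood test gave a log2 fold of -0.40 ± 0.14 with a 95% interval of -0.71 to -0.10, an unadjusted p of 0.0130 and an adjusted p of 0.499. The difference in mean log2 CPM was -0.42 among libraries with Y-linked transcripts and -0.43 among those without, so for this X-linked gene it was about the same in both sexes at P0.

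Fmn1 had 32.5, 34.0, 26.1 and 31.7 CPM in P0 wild-type and 33.6, 25.0, 43.2, 21.9 and 30.3 CPM in P0 mutant libraries. The mutants lay on both sides of the wild types, with mutant library 3 highest and mutant library 4 lowest of all 9. The log2 fold was -0.01 ± 0.20 with a 95% interval of -0.44 to 0.41.

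Limch1 had 149, 182, 169 and 243 CPM in P0 wild-type and 187, 182, 214, 211 and 261 CPM in P0 mutant libraries. The ranges overlapped, and the log2 fold was 0.19 ± 0.15 with an interval of -0.13 to 0.50. Etl4 had 186, 248, 175 and 248 CPM in wild-type and 215, 243, 193, 242 and 249.9 CPM in mutant libraries. Its wild-type libraries fell into a lower and a higher pair with the mutants between and beside them, and the log2 fold was 0.09 ± 0.13 with an interval of -0.19 to 0.38. Hmcn1 had 321, 383, 312 and 421 CPM in wild-type and 312, 429.7, 344, 396 and 455 CPM in mutant libraries, a log2 fold of 0.11 ± 0.13 with an interval of -0.18 to 0.40.

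The P0 wild-type pairs of Etl4 split by sex, with 2 libraries on each side. The wild-type libraries with Y-linked transcripts had 175 and 186 CPM of Etl4, and those without had 248 each. Hmcn1 had 312 and 321 CPM in the first pair and 383 and 421 CPM in the other, and Chodl 34.3 and 38.3 against 47.7 and 50.9 CPM. Limch1 had 149 and 169 against 182 and 243 CPM. In the P0 mutants the sexes overlapped for these 4 genes, and in the P0 wild types they overlapped for Fmn1 and Capn6. Only 1 E14.5 wild-type library lacked Y-linked transcripts. It had the lowest Etl4 level of its group, 155 CPM, and was not the highest for Hmcn1, Chodl or Limch1. At P0 the mutant minus wild-type difference in mean log2 CPM of Etl4 was 0.38 with Y-linked transcripts and -0.19 without. That of Hmcn1 was 0.27 and -0.06, and that of Limch1 0.46 and -0.09. For Chodl it was -0.36 with and -0.86 without, below 0 in both. With 2 or 3 libraries a cell these are given as values, and their part in the folds was not tested beyond the fit with the Y-linked covariate, in which the folds were 0.13 ± 0.14 for Etl4, 0.14 ± 0.14 for Hmcn1, 0.21 ± 0.16 for Limch1 and -0.58 ± 0.18 for Chodl.

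For 6 of 6 genes the E14.5 fold lay outside the 95% interval of the P0 fold. That is a description, because the E14.5 values were chosen for being low and so tend to overstate the difference.

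**Figure D2:**
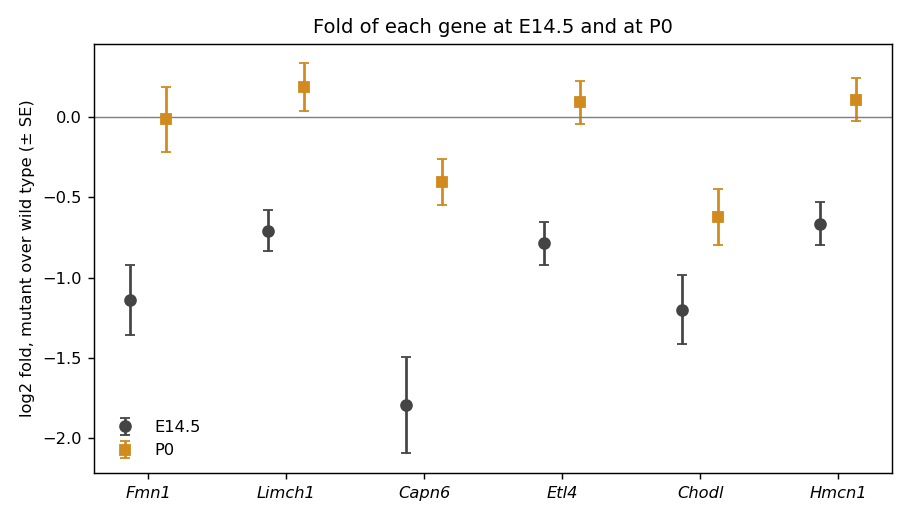
Log2 fold of mutant over wild type with its standard error for each gene (vertical axis) at E14.5 (circles) and at P0 (squares). The E14.5 values run from -1.79 to -0.66, while at P0 Chodl (-0.62) and Capn6 (-0.40) lie below 0 and the other 4 between -0.01 and 0.19.

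Wild-type levels at the 2 ages, each from its own table, moved in different directions among the 6 genes. Fmn1 had 73.8 ± 7.50 CPM at E14.5 and 31.1 ± 3.46 CPM at P0 in wild types (SD, n = 4 each), and 33.5 and 30.8 CPM in mutants. So Fmn1 in E14.5 mutants stood near its level in newborns of either genotype. Capn6 went the other way, from 93.1 CPM in E14.5 wild types to 219 CPM in P0 wild types, and from 26.8 to 165 CPM in mutants, a ratio of 2.35 in wild types and 6.17 in mutants. For Limch1 the same ratio was 1.65 in wild types and 3.06 in mutants, for Etl4 1.26 and 2.31, for Hmcn1 1.14 and 1.94, and for Chodl 0.929 and 1.39. The E14.5 mutant levels under these ratios were chosen for being low, which by itself raises the mutant ratios. Reporter and strain differ between these tables, so none of these ratios is a change with age alone.

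Levels were compared between genes per kilobase of annotated exon. In E14.5 wild types the order was Hmcn1 (14.9 ± 2.19 CPM per kb), Capn6 (11.9 ± 6.50), Limch1 (10.97 ± 1.10), Etl4 (10.6 ± 0.917), Chodl (8.39 ± 1.47) and Fmn1 (4.80 ± 0.487), with SD over 4 libraries. Each gene overlapped the next in range except Chodl and Fmn1, which stood apart, so neighbours among the first 5 were not set apart. In P0 wild types Capn6 led with 28.05 ± 2.74 CPM per kb, above Limch1 (18.1 ± 3.96) and Hmcn1 (16.9 ± 2.44), then Etl4 (13.3 ± 2.43), Chodl (7.80 ± 1.42) and Fmn1 (2.02 ± 0.225). There the ranges of Limch1, Hmcn1 and Etl4 overlapped in turn. The union of exons is longer than any single transcript, and the sources used here do not say whether intronic reads were counted, so these levels are approximate.

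Covariation among the 6 genes was read from what the choice did not use, the differences between libraries of the same group. After the mean of each of the 4 groups was taken from the log2 CPM, 17 libraries were left to compare. Etl4 and Hmcn1 went together most closely, with a Pearson r of 0.77 and a Spearman rho of 0.65. Capn6 and Hmcn1 had an r of 0.60 (rho 0.71), and Chodl and Hmcn1 0.52 (rho 0.51). The ages differed for several pairs. Chodl and Hmcn1 had an r of 0.76 over the 8 E14.5 libraries and 0.19 over the 9 P0 libraries. For Capn6 it was 0.61 and 0.10 with Etl4, and 0.52 and -0.083 with Chodl. Fmn1 and Etl4 had an r of 0.87 over the 8 E14.5 libraries and -0.24 over the 9 P0 libraries. Limch1 and Chodl had -0.62 and 0.47, so that their pooled r of -0.033 joins opposite signs. Limch1 had 0.66 with Hmcn1, 0.62 with Capn6 and 0.56 with Etl4 at P0, against -0.17, -0.022 and -0.36 at E14.5. For scale, the r of Hmcn1 over 17 libraries with the 12928 other genes tested in both tables had 5th and 95th percentiles of -0.53 and 0.52. That scale does not serve the r of a single age, which spreads more widely over only 8 or 9 libraries. No scale was computed for it, so the differences between the ages were not tested. The libraries share depth, dissection and sex among these points, so the values describe these libraries, with no test.

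**Figure D3:**
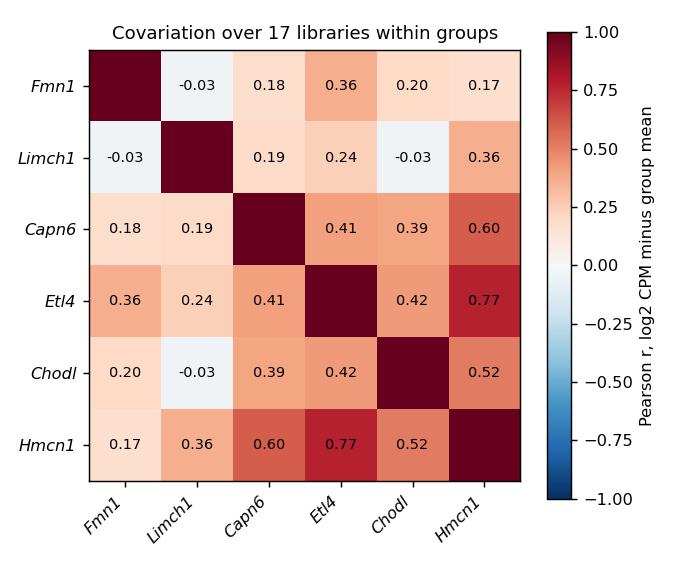
Pearson r between each pair of the 6 genes (rows and columns; colour from -1 in blue to 1 in red) over 17 libraries, computed on log2 CPM after each group's mean was subtracted. Hmcn1 is nearest to Etl4 (0.77), Capn6 (0.60) and Chodl (0.52), while the pooled values of Fmn1 and Limch1 with the other genes run from -0.033 to 0.36. Several pairs, Chodl and Hmcn1 among them, differ between the ages.

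The genes with the most similar within-group pattern differed for each of the 6 genes. They were Mrpl27 for Fmn1 (r = 0.84, rho = 0.87), followed by Tmem144 and Xpc. For Limch1 they were Aldh7a1 (r = 0.87, rho = 0.81), Fndc3b and Cwc22, and for Capn6 they were Col28a1 (r = 0.92, rho = 0.85), Kcna6 and Extl3. Etl4 was closest to Ctgf (r = 0.89, rho = 0.87), Samd4 and Gm37494. Chodl was closest to Tmem62 (r = 0.84, rho = 0.76), Bptf and Slc38a10, and Hmcn1 to Dab2ip (r = 0.87, rho = 0.90), Bcl7a and Zfp950. Each is the top of 12928 genes over 17 libraries, a search that gives high values by itself. Ctgf had a log2 fold of -0.28 ± 0.27 and Dab2ip of -0.06 ± 0.12 at E14.5. The largest E14.5 folds in either direction were those of Cwc22 (-1.84 ± 0.71), Col28a1 (-1.54 ± 0.96), Tmem144 (1.31 ± 0.68), Mrpl27 (0.99 ± 0.36) and Samd4 (-0.81 ± 0.30). None of the 18 named here passed edgeR's test at either age.

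The nearest tested protein-coding gene on each side was examined, since neighbours can share regulatory DNA. Of 12 neighbours at E14.5, 4 were lower and 8 higher, where 49.6% of all tested genes were lower. In edgeR's quasi-likelihood test 0 passed, and 4 had an unadjusted p under 0.05, where 7.14% of all genes did. DESeq2 called 1, Dcx, and limma-voom 0. Dcx (doublecortin, a microtubule protein of young neurons), 28.4 kb from Capn6, had 98.1 ± 15.3 CPM in wild types and 149.6 ± 27.8 CPM in mutants (SD, n = 4 and 4), a log2 fold of 0.61 ± 0.15, opposite in sign to that of Capn6. On the other side of Capn6, Pak3, a kinase that acts on actin, had 0.05 ± 0.24. Next to Limch1 lies Uchl1, a neuronal ubiquitin hydrolase, with a log2 fold of 0.37 ± 0.14. Of all 12 neighbours, Otud1, a deubiquitinase 249.2 kb before Etl4, had the lowest fold, with 17.3 ± 2.74 CPM in wild types and 8.50 ± 2.64 CPM in mutants (SD, n = 4 and 4), and edgeR gave -1.02 ± 0.28 on the log2 scale (adjusted p = 0.237). On the other side of Etl4, Arhgap21 had -0.17 ± 0.12. Scg5 and Ryr3 beside Fmn1 had 0.26 ± 0.16 and 0.55 ± 0.44, D16Ertd472e and Ncam2 beside Chodl 0.17 ± 0.26 and 0.54 ± 0.16, and Tpr and Ivns1abp beside Hmcn1 -0.15 ± 0.12 and 0.04 ± 0.11.

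At P0, 10 of the 12 neighbours were lower and 2 higher, where 51.6% of all tested genes were lower. In edgeR, DESeq2 and limma-voom 0 passed, with 2 at an unadjusted p under 0.05 in edgeR, where 7.35% of all genes were. These were Ryr3 (-0.52 ± 0.23) and Uchl1 (-0.55 ± 0.20). Uchl1 is also among the 10 neuron markers given below, of which 10 were lower at P0, and their part in this count was not tested. Grem1, a BMP antagonist 29.4 kb from Fmn1 whose limb enhancers are known to lie within Fmn1, was tested at P0 only. It had 6.21 ± 2.65 CPM in wild types and 2.93 ± 2.00 CPM in mutants (SD, n = 4 and 5), and edgeR gave -1.08 ± 0.51 on the log2 scale (adjusted p = 0.678). Fmn1 itself was level between the genotypes at that age.

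Genes of the same families and pathways were mixed in direction at E14.5. Over 8 lists of related genes, without the 6, 147 genes were tested at E14.5, of which 60 were lower and 87 higher, where 49.6% of all tested genes were lower. In edgeR 0 passed, where 0.17% of all genes did in either direction, and 16 had an unadjusted p under 0.05 against 7.14% of all genes. limma-voom called 0 and DESeq2 2, Dcx and Fbln2. The median log2 fold of all tested genes was 0.0027 at E14.5 and -0.0093 at P0.

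Among 14 other formins at E14.5, 6 were lower and 8 higher, with a median log2 fold of 0.0067. The most abundant were Fmnl2, with 119 ± 12.3 CPM in wild types and 119 ± 12.4 CPM in mutants (SD, n = 4 and 4), and Daam1 (0.08 ± 0.12). Other actin assembly genes had a median of 0.08, with Actb at 0.02 ± 0.11 and Actg1 at 0.19 ± 0.13. Of 8 other calpain genes tested 7 were higher, with a median of 0.06, among them Capn2 (0.20 ± 0.12) and Capn7 (0.01 ± 0.13). Microtubule-binding genes, 16 of 26 higher, included Map1b (-0.03 ± 0.13) and Stmn1 (0.18 ± 0.13).

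In the list of non-muscle myosin II, its regulators and LIM and calponin proteins, 19 of 31 were lower at E14.5 with a median of -0.02. The myosin heavy chains that Limch1 is known to act with had folds of -0.20 ± 0.11 (Myh9) and -0.10 ± 0.10 (Myh10). Lectin-like surface proteins were lower in 5 of 10. One of them, Vcan (versican, a matrix proteoglycan that migrating crest cells are known to meet), had 169 ± 21.0 CPM in wild types and 118 ± 29.0 CPM in mutants (SD, n = 4 and 4) with no overlap, and edgeR gave -0.51 ± 0.16 on the log2 scale (adjusted p = 0.394). Ncan had 0.08 ± 0.18. Fibulins and other basement membrane genes were higher in 18 of 26, with Col18a1 at 0.16 ± 0.11 and Agrn at 0.09 ± 0.11. Fbln2 (fibulin 2), of the same family as Hmcn1 and singled out after its values were seen, had a log2 fold of 0.53 ± 0.13, with 123 ± 17.3 CPM in wild types and 178 ± 25.2 CPM in mutants (SD, n = 4 and 4). Of 4 genes tested with Etl4's relatives and notochord genes 3 were lower, such as Sox5 (-0.08 ± 0.14) and Sox6 (-0.05 ± 0.16).

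At P0, 154 of these related genes were tested, 66 lower and 88 higher. In edgeR 0 passed, with 27 at an unadjusted p under 0.05, where 7.35% of all genes were. DESeq2 called 1, Fbln2 (log2 fold 0.56 in DESeq2), and limma-voom 0. The lists leaned in different directions. Fibulin and basement membrane genes leaned up, 26 of 30, at a median of 0.30, among them Col4a1 (0.47 ± 0.14) and Col18a1 (0.34 ± 0.13), while Hmcn1 had 0.11 ± 0.13. Myosin II, LIM and calponin genes leaned up too, 26 of 31, at a median of 0.13, with Limch1 at 0.19 ± 0.15, and with Myh9 at 0.19 ± 0.15 and Myh10 at 0.25 ± 0.12. Microtubule-binding genes leaned down, 24 of 26, at a median of -0.09, as in Map1b (-0.24 ± 0.12) and Map2 (-0.12 ± 0.11), and Capn6 at -0.40 ± 0.14. Formins were lower in 6 of 14, with Fhod3 at -0.45 ± 0.14 and Daam2 at 0.21 ± 0.12. Actin assembly genes were lower in 16 of 28, with Actb and Actg1 at 0.0068 ± 0.12 and -0.0060 ± 0.11. Calpains were lower in 5 of 8, with Capn2 at 0.05 ± 0.12 and Capns1 at -0.01 ± 0.12. Lectin-like surface genes were lower in 5 of 13, with Vcan at 0.24 ± 0.17 and Ncan at 0.06 ± 0.13, and of the 4 genes listed with Etl4, Srcin1 had 0.02 ± 0.16 and Sox5 0.37 ± 0.16. At this age fibroblast markers were higher in mutants (7 of 7 tested) and neuron markers lower (10 of 10), in the same directions as the basement membrane and the microtubule genes, and their part in these counts was not tested. The lists were set out by family, and no list is called changed.

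**Figure D4:**
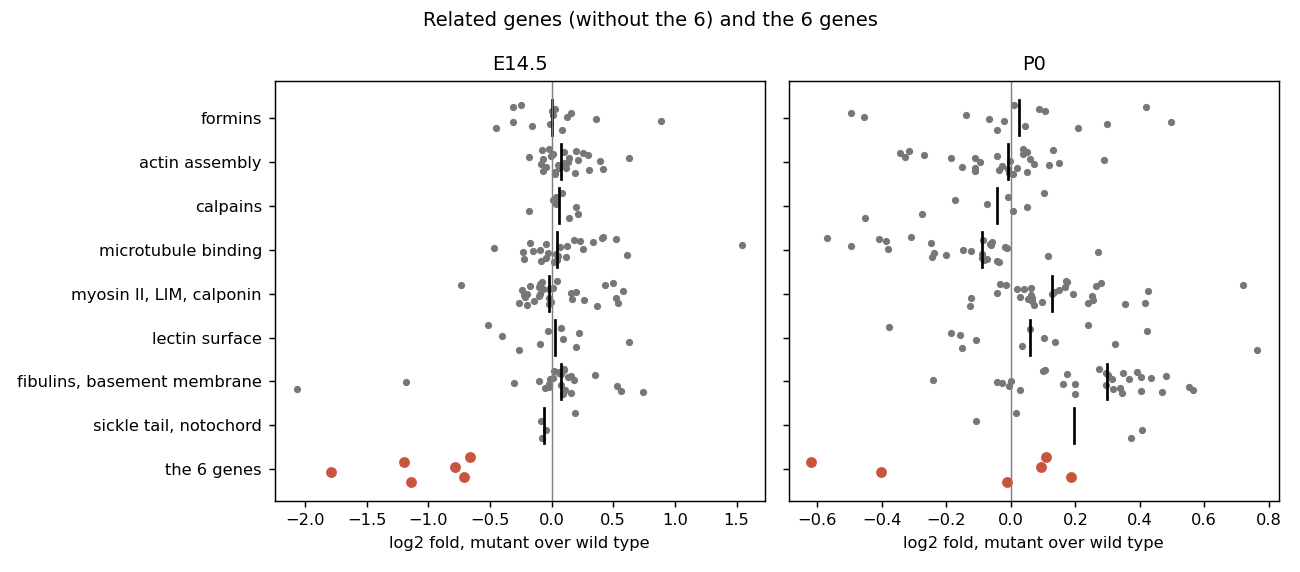
Log2 fold of mutant over wild type (horizontal axis) of every tested gene in 8 lists of related genes (grey, with the list's median as a black bar) and of the 6 genes (red), at E14.5 and at P0, on separate scales. At E14.5 the list medians lie between -0.06 and 0.08, and the 6 genes between -1.79 and -0.66.

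Marker levels show which other cells the libraries could hold. At E14.5 the summed level of 10 neuron markers was 2879 to 3475 CPM in wild types and 3012 to 4009 CPM in mutants. Of these 10, 8 were higher in mutants, and mutant libraries 1, 3 and 4 lay above every wild-type library. The 10 glia and progenitor markers, of which 8 were tested and 4 were higher, summed to 3068 to 3319 and 2992 to 3732 CPM. Fibroblast and mesenchyme markers, of which 5 of 8 were tested and 5 were higher in mutants, summed to 324 to 509 CPM in wild types and 490.6 to 602 CPM in mutants. The ranges overlapped, and the part of any of these markers in the E14.5 levels of the 6 genes was not tested. Smooth muscle markers (4 of 8 lower) summed to 37.45 to 132.5 and 45.2 to 138 CPM. Markers of interstitial cells of Cajal (2 of 3 lower) summed to 126 to 180.5 and 109 to 165 CPM, and those of endothelium to 91.8 to 111 and 78.7 to 104 CPM. Epithelial markers, 3 of 3 tested higher, summed to 2.74 to 9.61 CPM in wild types and 5.51 to 31.8 CPM in mutants. Mesothelial markers were at most 2.80 CPM, immune markers at most 4.59 CPM and erythroid markers at most 3.61 CPM in any E14.5 library, and Twist1, Msln, Ptprc, C1qa, Lyz2 and Alas2 were not analysed there.

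At P0 the summed levels of fibroblast, smooth muscle and epithelial markers were higher than at E14.5. Fibroblast markers summed to 1426 to 2092 CPM in wild types and 1715 to 3367 CPM in mutants, with 7 of 7 tested higher, and smooth muscle markers to 323 to 465 and 232 to 975 CPM, with 7 of 8 higher. Neuron markers, 10 of 10 lower, summed to 3347 to 4319 CPM in wild types and 2717 to 3603 CPM in mutants, and glia and progenitor markers, 9 of 10 higher, to 2404 to 2954 and 2773 to 3424 CPM. Epithelial markers (3 of 7 lower) summed to 165 to 487 and 148 to 756 CPM, and markers of interstitial cells of Cajal (2 of 3 lower) to 287 to 464 and 196 to 327 CPM. The part of these markers in the levels of the 6 genes was not tested.

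**Figure D5:**
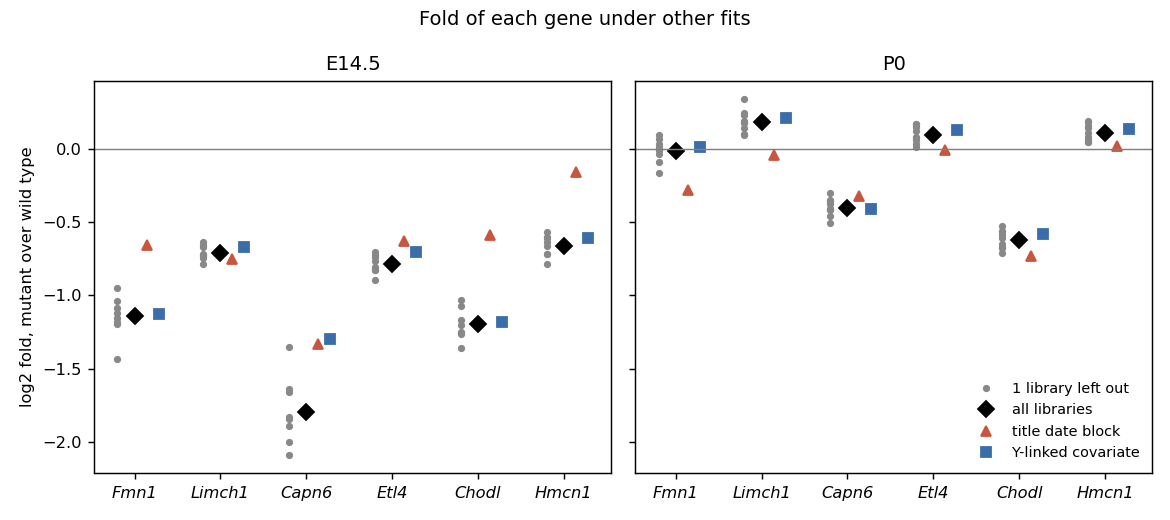
Log2 fold of mutant over wild type (vertical axis) of each gene with all libraries (black), with 1 library left out (grey), with the title date as a block (red) and with the Y-linked level as a covariate (blue), at E14.5 and P0. At E14.5 every fit lies below 0, where the genes were chosen as lower, so nothing is read from that direction. Hmcn1 in the date block is closest to 0, at -0.16. At P0 Chodl and Capn6 lie below 0 in every fit shown.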

How the data were processed

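Per the labels' protocols, cells were freed with dispase and collagenase and sorted, and total RNA went into stranded libraries by a low-input kit. STAR, limma, mm10 and GRCm38 are named, without roles, per the submitters' processing notes. For each age the authors deposited a gene table of whole sense-strand read counts. Totals were nearly equal within a table, and the sources used here do not give the step that made them so. Library totals may therefore not show the depth at which each library was sequenced.

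The 2 tables were fitted separately, by edgeR 4.0.16 under R 4.3.3 (TMM, filterByExpr, quasi-likelihood test, Benjamini-Hochberg over all tested genes, threshold 0.05), and tested on simulated data. SE is the fold over the square root of F. Log2 CPM used a prior count of 2. GENCODE M21 matched 22768 of 22786 identifiers at E14.5 and 25548 of 25568 at P0. No 2 libraries of a group agreed within sampling noise. Replicate numbers are shared between genotypes, and same-numbered libraries deviated together weakly at most.

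The members and lists were chosen with earlier results of these data known. Named genes are the members, Dlx1 and Dlx2, tested neighbours, the 3 genes with the highest within-group r, and from each list those that passed and the 2 with the highest CPM. One gene that this rule names is not reported here. Alternatives were DESeq2 1.42.0, limma-voom (limma 3.58.1), other scalings and filters, a prior count of 2 in the fit, blocks for replicate number and title date, the summed Y-linked level, and dropping libraries 1 at a time.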

Additional observations from a re-analysis of the deposited data

How the results depend on the processing

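Across the alternatives, 6 of 6 folds stayed below 0 at E14.5. The genes were chosen as lower there and their groups do not overlap, so nothing is read from this direction. With the title date as a block, which leaves 1 library against 1 at E14.5, Fmn1 moved to -0.65, Chodl to -0.59 and Hmcn1 to -0.16. Leaving out 1 library, the E14.5 fold ran from -1.43 to -0.95 for Fmn1, -0.78 to -0.63 for Limch1, -2.09 to -1.35 for Capn6, -0.89 to -0.70 for Etl4, -1.36 to -1.03 for Chodl and -0.79 to -0.57 for Hmcn1. At P0 0 of 6 genes were called in any alternative, with adjusted p from 0.135 up for Chodl and 0.231 up for Capn6. The P0 fold of Fmn1 was above 0 with upper-quartile scaling (0.0083) and the Y-linked covariate (0.012) and ran from -0.16 to 0.0914 leaving out 1 library, with values of 0.0096 without wild-type library 1, 0.034 without wild-type 2, 0.063 without mutant 2 and 0.0914 without mutant 4. The same range was 0.0931 to 0.34 for Limch1 (without wild-type 1 and 4), 0.0093 to 0.17 for Etl4 (without wild-type 3 and 2), 0.046 to 0.19 for Hmcn1 (without mutant 5 and wild-type 4), -0.71 to -0.53 for Chodl and -0.51 to -0.30 for Capn6. With the date block that of Limch1 was -0.0426 and that of Etl4 -0.0091. The count of genes called at E14.5, 23, became 80 in DESeq2, 136 with no filter, 37 with the stricter filter and 4 with the date block, and ran from 7 to 31 leaving out 1 library (9 without wild-type 3, 12 without wild-type 4 or mutant 1, 7 without mutant 3). At P0 the count of 2 became 45 in DESeq2, 98 with no filter and 22 with the replicate block, and ran from 2 to 15 (11 without wild-type 2, 4 without wild-type 4, 15 without mutant 3). Related genes called at E14.5, 0, became 2 in DESeq2, 6 with no filter and 3 with the Y-linked covariate, and ran from 0 to 1 (Dcx, without mutant 2). At P0 1 was called in DESeq2 and 1 with no filter. Same-numbered libraries had correlations of their deviations from -0.14 to 0.05 at E14.5 and from -0.09 to 0.24 at P0. The value of 0.24, for wild-type and mutant library 3, was the highest of any wild-type and mutant pair at P0. Whether libraries of a number share more than the number was not tested further. Under the replicate block the E14.5 folds ran from -1.75 (Capn6) to -0.67 (Hmcn1), Chodl had -0.58 and Capn6 -0.52 at P0, and no call of the 6 genes changed. The causes of these shifts were not tested.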
